A study of Rattus norvegicus with 8 samples.

Results

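The miR-30 family was followed here through its 5p arms, rno-miR-30a-5p, rno-miR-30b-5p, rno-miR-30c-5p, rno-miR-30d-5p and rno-miR-30e-5p. They were taken by name from the array, which makes 5 of the 719 rat miRNAs measured. The samples were RNA from the exosome-rich fraction of serum of male specific pathogen-free Wistar rats, precipitated with ExoQuick and hybridised with a single dye to Agilent rat miRNA arrays. The controls were 4 samples from sham-operated rats (replicates 1, 2, 3 and 4), and 4 samples came from rats with acid reflux esophagitis (RE; replicates 5, 8, 9 and 10) at day 21, the chronic phase. The labels give the day for the RE rats only, and the study describes the array samples as serum of that day without naming a day for the controls. RE was a surgical model, made by a ligature on the stomach together with a cuff around the duodenum, so that acid reached the esophagus. The rats carried no transgene or drug treatment that the labels name. The sources do not say whether every serum belonged to a different animal, and p-values here describe variation among the 8 samples, part of which may be technical.

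A miRNA guides Argonaute proteins to messenger RNAs that pair with its seed, the bases near its 5′ end, and the bound messenger RNAs are repressed. The miR-30 5p arms share their seed and are therefore treated as a family with overlapping targets. They are made from hairpins at several places in the genome, are found in many tissues including epithelia, heart and kidney, and are best known for restraining epithelial-mesenchymal transition, fibrosis and autophagy. The opposite strand of each hairpin gives a 3p arm with another seed.

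The mature sequences are shown because the shared seed and the few bases that differ behind it decide what the array can tell apart. RefSeq (GRCr8) held 3 of the 5 members, printed 5′ to 3′ with the seed (bases 2 to 8) in capitals.
miR-30a-5p: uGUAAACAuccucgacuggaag
miR-30c-5p: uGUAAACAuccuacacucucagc
miR-30e-5p: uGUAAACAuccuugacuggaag
The seed was the same in all 3. Counted from 1 at the 5′ end, miR-30a-5p and miR-30e-5p differed at 1 of 22 bases (C13U, from miR-30a-5p to miR-30e-5p). miR-30a-5p and miR-30c-5p differed at 5 of 22 compared bases, C13A, G14C, G18C, G19U and A20C. Of 693 mature miRNA names in the RefSeq table, 4 had this seed, and the fourth was miR-384-5p, which shares the seed but not the bases behind it.
miR-384-5p: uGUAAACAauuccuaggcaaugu

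The members lie in 3 pairs of hairpins. By the array's probe positions on build rn4, miR-30a-5p mapped to chr9:22142900-22142915 on the plus strand, and miR-30b-5p and miR-30d-5p to the minus strand of chromosome 7, at chr7:105815938-105815953 and chr7:105819739-105819752. miR-30e-5p mapped to chr5:141365136-141365152 on the minus strand. miR-30c-5p mapped to both chr5:141362141-141362158 and chr9:22162648-22162665, because a pair of hairpins, Mir30c1 and Mir30c2, makes the same 5p arm, so its signal is the sum of both. In the RefSeq annotation, Mir30c1 and Mir30e lie within Nfyc, the gene of a subunit of the transcription factor NF-Y, and Mir30b and Mir30d lie within the noncoding gene LOC102551574. No annotated gene spans Mir30a and Mir30c2.

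Each value below is the total gene signal, a fluorescence intensity summed over the probes of a miRNA, on a linear scale with background subtracted. On RE 9 the total of miR-30c-5p held its longer probe only. All 5 members were detected on all 8 arrays, and none of their 100 spots per array was saturated. The RE 9 array was the dimmest of the series. It detected 144 miRNAs, against 212 to 232 on the control arrays and 197 to 245 on the other RE arrays, and 67 of its 100 member spots were well above background, against 88 to 100 on the other arrays. All arrays came from 1 slide and were scanned on 1 date. For scaling, each array's total gene signals were set against a reference of that array, the 75th percentile of the 144 miRNAs with a detected signal throughout the series. This reference ran from 494 to 915 in controls and was 1052, 1080, 239 and 442 in RE 5, 8, 9 and 10.

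None of the 5 arms passed the test between RE and control. Their fold changes on the scaled signal lay between 0.826 for miR-30a-5p and 0.983 for miR-30c-5p. In the fit over 192 miRNAs (limma, Benjamini-Hochberg adjustment), 0 of 5 members were called at an adjusted p of 0.05, and 0 of 5 had an unadjusted p under 0.05. Over the 192 there were 2 calls (1.04%), both lower in RE, and 5 were lower at an unadjusted p under 0.05 (2.60%). Among the 144, to which the members belong, 0 were called and 1 had an unadjusted p under 0.05. The rest of the 192 passed the filter through the controls alone, and a floor value stood in where an RE array gave no signal. That filter favours lower values in RE, so calls among the rest are no background for the members. The groups overlapped for every member, as they did for all tested miRNAs but 3 of 192 (1.56%), none of them among the 144. All 5 members had a log2 fold change below 0, as did most miRNAs tested, of which 36 (18.8%) lay above 0, all among the 144. For miR-30c-5p (-0.025) the RE 9 total held its longer probe only. In mean spot signal, each of its probes taken alone gave a difference above 0 (0.070 and 0.020). The direction of the members also depends on the scaling, since 3 of 5 lay above 0 when arrays were scaled by their median and 2 of 5 after quantile normalization. With the scaling of the study's methods, which divides RE 9 by 0.1, 5 of 5 lay above 0, and 4 of 5 without RE 9.

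miR-30a-5p is the arm of the chromosome 9 hairpin Mir30a. Its signal was 199.2, 171.2, 196.4 and 245.1 in controls 1 to 4, and 329.3, 314.8, 61.8 and 97.4 in RE 5, 8, 9 and 10. On the scaled log2 scale these became -1.55, -1.53, -1.51 and -1.90 in controls and -1.68, -1.78, -1.95 and -2.18 in RE. Before scaling, RE 5 and 8 were above every control and RE 9 and 10 below every control. After scaling all 4 RE samples were below the control mean, which held for 26 of 192 miRNAs (13.5%), and RE 9 and 10 remained below every control. The mean was -1.62 ± 0.19 in controls and -1.90 ± 0.22 in RE (SD, n = 4 each), a log2 fold change of -0.28 (SE 0.27, 95% interval -0.88 to 0.33, limma adjusted p = 0.912). The exact two-sided permutation test gave p = 0.0857, where 0.0286 is the smallest p that 4 against 4 samples allow, and 11 of 192 miRNAs (5.73%) had a p as small or smaller.

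miR-30b-5p and miR-30d-5p come from neighbouring hairpins on chromosome 7. The signal of miR-30b-5p was 212.6, 148.5, 182.6 and 359.8 in controls 1 to 4 and 278.1, 344.3, 72.0 and 128.3 in RE 5, 8, 9 and 10. Scaled, it was -1.46, -1.73, -1.61 and -1.35 in controls and -1.92, -1.65, -1.73 and -1.79 in RE on the log2 scale. All 4 RE samples were below the control mean, and RE 5 and 10 were below every control. The group means were -1.54 ± 0.17 and -1.77 ± 0.11 (SD, n = 4), a log2 fold change of -0.23 (SE 0.25, 95% interval -0.81 to 0.34, limma adjusted p = 0.912, exact permutation p = 0.0857).

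The signal of miR-30d-5p was 150.5, 131.4, 129.3 and 230.0 in controls and 219.2, 219.0, 60.6 and 94.0 in RE 5, 8, 9 and 10. Scaled, the control values were -1.96, -1.91, -2.11 and -1.99 and the RE values -2.26, -2.30, -1.98 and -2.23 on the log2 scale. RE 5, 8 and 10 were below every control, and RE 9, the dimmest array, lay among the controls. The means were -1.99 ± 0.085 in controls and -2.19 ± 0.15 in RE (SD, n = 4), a log2 fold change of -0.20 (SE 0.25, 95% interval -0.77 to 0.36, limma adjusted p = 0.912, exact permutation p = 0.0857). With median scaling this value turned to 0.010.

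miR-30c-5p, the arm made from both chromosomes 5 and 9, had the widest control values of the 5. Its signal was 88.1, 55.7, 124.0 and 197.9 in controls and 190.9, 202.5, 32.5 and 73.1 in RE 5, 8, 9 and 10. The RE 9 total is that of the longer probe alone, without the 5.74 of the shorter, whereas the other arrays include both. The RE 9 value is therefore lower than a total of both probes would be. Scaled, it was -2.73, -3.15, -2.17 and -2.21 in controls and -2.46, -2.42, -2.88 and -2.60 in RE on the log2 scale. The RE values all lay inside the control range. The means were -2.56 ± 0.47 and -2.59 ± 0.21 (SD, n = 4), a log2 fold change of -0.025 (SE 0.32, 95% interval -0.75 to 0.70, limma adjusted p = 0.971, exact permutation p = 0.971). The sign of this value changed in 12 of 26 alternative settings, among them the fits without control 3, without control 4 and without RE 9, which gave 0.11, 0.094 and 0.19. The fit without RE 9 also had a recomputed scaling reference.

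miR-30e-5p, whose hairpin lies next to Mir30c1, split the RE samples. Its signal was 163.3, 135.5, 192.9 and 317.3 in controls and 333.3, 383.1, 55.4 and 101.6 in RE 5, 8, 9 and 10. Scaled, it was -1.84, -1.87, -1.53 and -1.53 in controls and -1.66, -1.50, -2.11 and -2.12 in RE on the log2 scale. RE 8 was above every control, and RE 9 and 10 were below every control. The means were -1.69 ± 0.19 and -1.85 ± 0.32 (SD, n = 4), a log2 fold change of -0.16 (SE 0.28, 95% interval -0.80 to 0.49, limma adjusted p = 0.927, exact permutation p = 0.400). Without RE 9 it was 0.047, in a fit whose scaling reference was also recomputed, from the miRNAs detected on all remaining arrays.

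**Figure D1:**
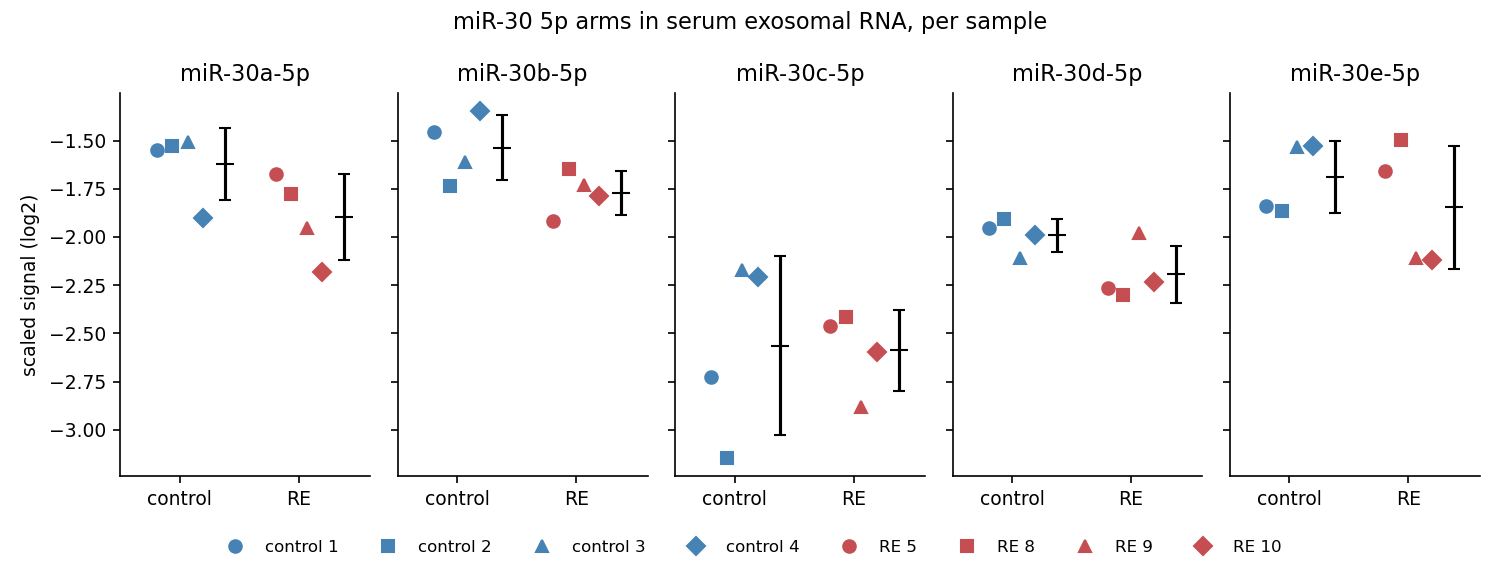
Scaled signal (log2 of the ratio to the 75th percentile of the array) of the 5 miR-30 5p arms in the 4 controls (blue) and 4 RE samples (red), a symbol per sample, with the mean and SD of each group in black. The groups overlap for every arm, the control values of miR-30c-5p spread from -3.15 to -2.17, and those of miR-30d-5p from -2.11 to -1.91.

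The median log2 fold change of the 5 members was -0.20, beside -0.29 over all 192 miRNAs tested and -0.19 over the 144 detected on all arrays. All 5 members lay above the median of the 192 in that fit, but 2 of 5 lay above the median of the 144, and 1 of 5 lay above the median when the mean processed spot signal or the normexp background correction replaced the total signal. The 95% intervals of the fold were 0.542 to 1.26 for miR-30a-5p, 0.570 to 1.27 for miR-30b-5p, 0.595 to 1.62 for miR-30c-5p, 0.586 to 1.29 for miR-30d-5p and 0.574 to 1.40 for miR-30e-5p, and changes within a member's interval are not excluded for it. Neither of the 2 miRNAs called was a miR-30 arm. The call of miR-455-5p (limma adjusted p = 2.04e-05) rested on detection in 4 of 4 controls and 0 of 4 RE samples, and that of the heart muscle miRNA miR-208a-3p (limma adjusted p = 0.0307) on 4 of 4 controls and 1 of 4 RE samples, whereas all members were detected throughout.

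**Figure D2:**
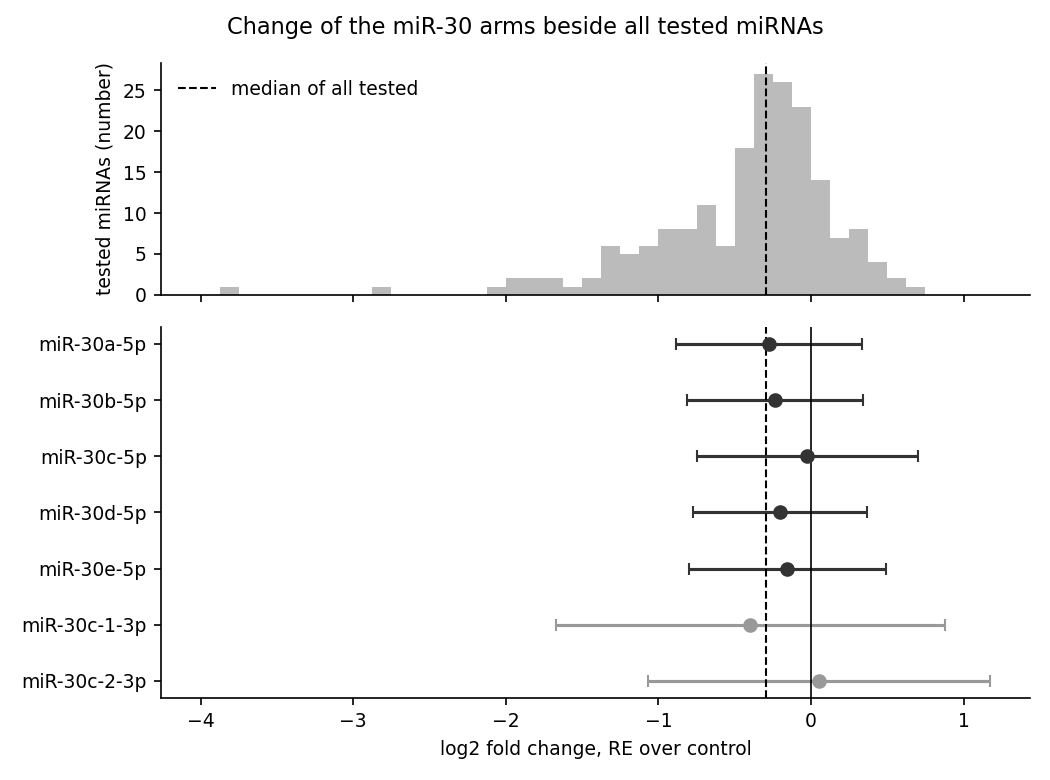
Log2 fold change (RE minus control, scaled signal) of each miR-30 5p arm and the tested 3p arms with its 95% interval, below a histogram of all 192 miRNAs tested, whose median of -0.29 is the dashed line. Every interval of a miR-30 arm includes 0, and the points of the 5p arms, which run from -0.28 to -0.025, lie below 0 with this scaling although 3 of 5 lie above 0 with median scaling.

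The members varied little within the groups. Over the 144 miRNAs detected on all arrays, the pooled within-group SD of the scaled log2 signal had a median of 0.57. It was 0.12 for miR-30d-5p, the smallest of the 144, 0.14 for miR-30b-5p (rank 2), 0.20 for miR-30a-5p (rank 6), 0.26 for miR-30e-5p (rank 11) and 0.36 for miR-30c-5p (rank 31). Among the 50 miRNAs nearest in signal to each member, the median SD was 0.48 to 0.61. Of those 50 neighbours, 0 had a smaller SD than miR-30d-5p, 1 than miR-30b-5p, 4 than miR-30a-5p, 6 than miR-30e-5p and 12 than miR-30c-5p.

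The small spread depended on the scaling. In alternatives chosen after the data were seen, miR-30d-5p ranked 2 with median scaling, 13 after quantile normalization and 52 with no scaling, and miR-30c-5p ranked 54, 70 and 103. Leaving out each array in turn gave ranks 3 to 9 for miR-30a-5p, 1 to 11 for miR-30b-5p, 17 to 40 for miR-30c-5p, 1 to 3 for miR-30d-5p and 9 to 28 for miR-30e-5p. Without RE 9 the SD was 0.28 for miR-30b-5p (rank 11), 0.20 for miR-30d-5p (rank 3) and 0.40 for miR-30e-5p (rank 28). Each was over 1.5 times its value with all arrays, and the median over the 144 was 0.62. In that fit the scaling reference was also recomputed, from the miRNAs detected on all remaining arrays. The rise therefore combines the lost array with a changed reference, and these parts were not separated. Before scaling the highest array exceeded the lowest by 3.79-fold for miR-30d-5p and by 6.91-fold for miR-30e-5p, and after scaling by 1.31-fold and 1.54-fold. The feature extraction software's own error on a member's total signal was 7.37% to 13.2%. That error covers the measurement of an array, and not differences between sera. The coefficient of variation of the scaled signal was 5.82% in controls and 10.6% in RE for miR-30d-5p, beside a software error of 7.37% to 9.73%, and 30.1% and 13.8% for miR-30c-5p, beside 8.96% to 13.2%.

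Profiles across the 8 arrays were compared by centring each scaled log2 profile on its own mean and taking the root mean square difference (RMS), over the 143 other miRNAs detected on all arrays. The arrays share their slide and scaling, and the ranks are a description. miR-30b-5p and miR-30d-5p were closest to each other, with an RMS of 0.16 and rank 1 in both directions, where the median RMS to all miRNAs was 0.53 to 0.61 over the members. These arms also had the smallest within-group SD of the 144, and flat profiles have a small RMS to each other whatever their source. The next in order for miR-30b-5p were miR-23a-3p (RMS 0.16) and miR-423-5p (0.19), and for miR-30d-5p miR-140-5p (0.17) and miR-423-5p (0.20).

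Of the arms of the other hairpin pairs, miR-30e-5p was rank 5 for miR-30c-5p (RMS 0.22), and miR-30c-5p rank 7 for miR-30e-5p. miR-30c-5p was rank 46 for miR-30a-5p, and miR-30a-5p rank 32 for miR-30c-5p. The nearest profiles to miR-30a-5p were miR-22-3p and miR-23b-3p, both at an RMS of 0.16, and its nearest family member was miR-30d-5p at rank 4 (0.23). miR-30c-5p was closest to miR-151-5p (0.16) and let-7i-5p (0.18), and miR-30e-5p to miR-301a-3p (0.14) and miR-18a-5p (0.18). Of the arms that differ by 1 base, miR-30e-5p was rank 6 for miR-30a-5p and miR-30a-5p rank 12 for miR-30e-5p.

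**Figure D3:**
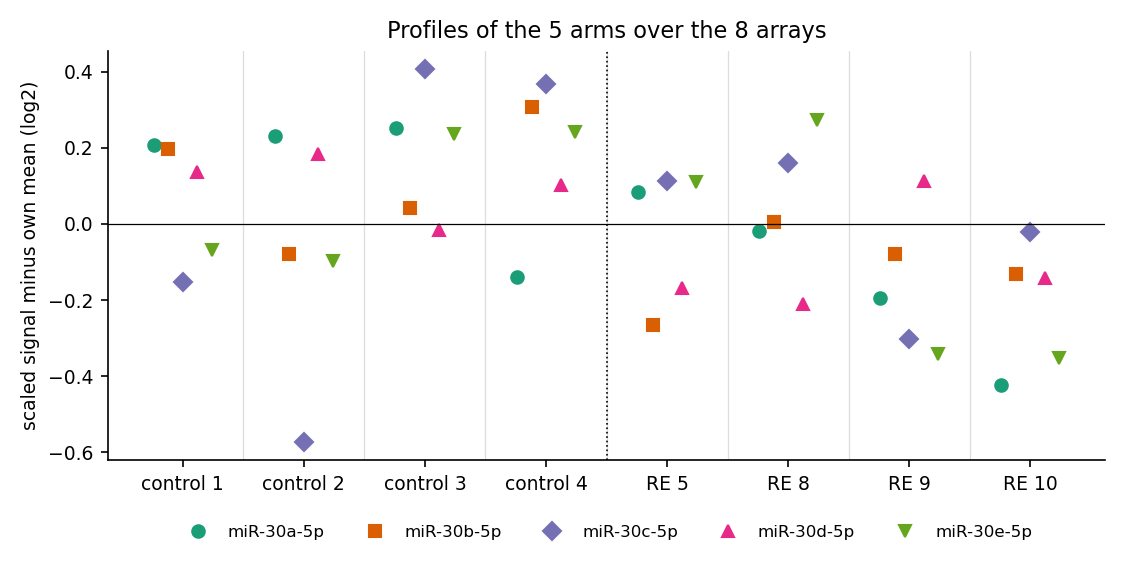
Scaled log2 signal of each miR-30 5p arm minus its own mean over the 8 arrays, with each arm a symbol and each array a column. Of the 5 arms, miR-30b-5p and miR-30d-5p have the smallest RMS between them (0.16), though they are not close on every array. miR-30c-5p is far below the other arms in control 2.

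Within an array, each arm was also set against the mean log2 signal of the other 4, which dividing an array by any single number cannot move. The difference between groups (RE minus control) in this deviation was -0.12 for miR-30a-5p, -0.070 for miR-30b-5p, 0.19 for miR-30c-5p, -0.031 for miR-30d-5p and 0.029 for miR-30e-5p. The groups overlapped for all 5, and single arrays decided these values. With an array left out they ran from -0.27 (without control 4) to -0.018 (without control 2) for miR-30a-5p, from -0.14 (without control 3) to 0.018 (without RE 5) for miR-30b-5p, and from 0.014 (without control 2) to 0.32 (without control 3) for miR-30c-5p. They ran from -0.15 (without RE 9) to 0.069 (without RE 8) for miR-30d-5p and from -0.062 (without RE 8) to 0.11 (without RE 9) for miR-30e-5p. For miR-30c-5p the deviation was -1.03, -1.39, -0.48 and -0.52 in controls and -0.58, -0.61, -0.94 and -0.52 in RE 5, 8, 9 and 10, so controls 1 and 2 were below every RE sample. These deviations include differences in probe response and do not rank the arms by abundance.

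The 5 arms together held 0.414%, 0.368%, 0.480% and 0.505% of the summed rat miRNA signal in controls 1 to 4, and 0.549%, 0.546%, 0.365% and 0.326% in RE 5, 8, 9 and 10. The group means were close, 0.442% ± 0.062 and 0.446% ± 0.118 (SD, n = 4), but the RE samples did not sit together. RE 5 and 8 were above every control and RE 9 and 10 below every control, RE 9 (0.365%) only just below control 2 (0.368%). In signal units the sum was 814, 642, 825 and 1350 in controls and 1351, 1464, 282 and 494 in RE, and the share is a share of intensity, not of molecules.

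Among marker lists for other cells, the leukocyte list and the platelet and endothelial list, which share miR-223-3p, were also higher in RE 5 and 8 than in any control. The share of 5 leukocyte miRNAs was 1.49% to 2.91% in controls, 3.93% and 4.05% in RE 5 and 8, and 1.75% and 1.46% in RE 9 and 10, of which RE 9 lay inside the control range. That of 5 platelet and endothelial miRNAs was 2.52% to 4.30% in controls, 4.49% and 5.24% in RE 5 and 8, and 2.46% and 2.32% in RE 9 and 10. The share of 3 red blood cell miRNAs did not follow the split, with 2.59% to 7.45% in controls and 3.17%, 7.38%, 3.83% and 4.02% in RE 5, 8, 9 and 10. The share of 3 liver miRNAs was 0.119% to 0.320% and 0.111% to 0.157%, with miR-194-5p detected on no array, and that of 5 striated muscle miRNAs was 0.486% to 0.944% and 0.167% to 1.14%. Of these lists only miR-208a-3p was called. The log2 ratio of miR-23a-3p to the red blood cell miRNA miR-451-5p, a usual measure of red cell lysis, ran from -2.43 to -1.11 in controls and from -2.23 to -0.96 in RE. The part of these markers and of the brightness of the arrays in the share was not tested.

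**Figure D4:**
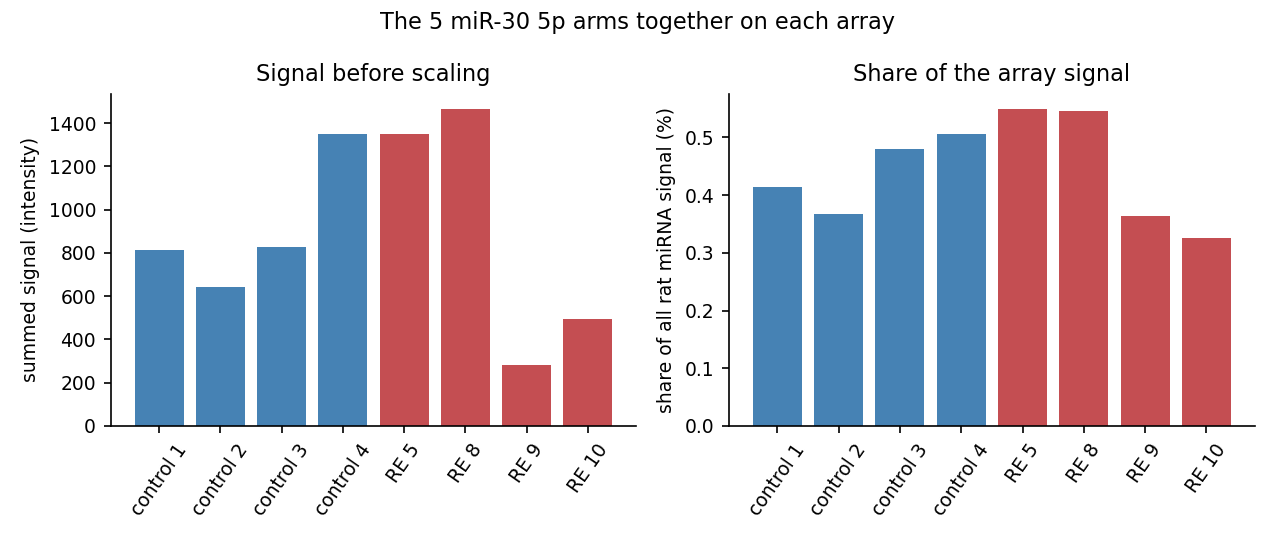
Share of the summed rat miRNA signal held by the 5 miR-30 5p arms (percent) and their summed signal (intensity) on each of the 8 arrays, a bar per array with controls in blue and RE in red. In the share, RE 5 and 8 (0.549% and 0.546%) lie above every control and RE 9 and 10 (0.365% and 0.326%) below. RE 9 is only just below control 2 (0.368%).

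The array carries 2 probes per member, each on 10 spots, complementary to the miRNA. For miR-30a-5p, miR-30c-5p and miR-30e-5p, whose sequences are printed above, the probes cover the 3′ part and only 1 to 3 bases of the shared seed. The 16-base probes of miR-30a-5p and miR-30e-5p are shown, 5′ to 3′ as DNA, because they differ by a single base, in capitals (G10A from the miR-30a-5p probe to the miR-30e-5p probe, counted from the probe's 5′ end).
miR-30a-5p probe: cttccagtcGaggatg
miR-30e-5p probe: cttccagtcAaggatg
The 16-base probe of miR-30a-5p matches miR-30e-5p at 15 of 16 bases and miR-30c-5p at 11, so how far the first pair of arms is measured apart was not tested here.

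Both probes of a member gave a difference between groups of the same sign. For miR-30c-5p that sign was above 0, whereas its total signal gave -0.025. On the scaled log2 scale, RE minus control was -0.28 and -0.29 for the shorter and longer probes of miR-30a-5p, -0.24 and -0.24 for miR-30b-5p, 0.070 and 0.020 for miR-30c-5p, -0.27 and -0.17 for miR-30d-5p and -0.12 and -0.17 for miR-30e-5p. The probes differed in brightness. The longer probe of miR-30b-5p was 6.54 to 7.65 times as bright as the shorter over the 8 arrays, with 1.27 to 1.59 times for miR-30d-5p and 3.29 to 6.73 times for the other members. On the dimmest array the mean spot signal of miR-30c-5p was 8.39 for the shorter probe and 47.5 for the longer. The total signal of that array held the longer probe only, so the shorter added nothing to the value tested. Probes of a miRNA share their target and are not replicates.

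**Figure D5:**
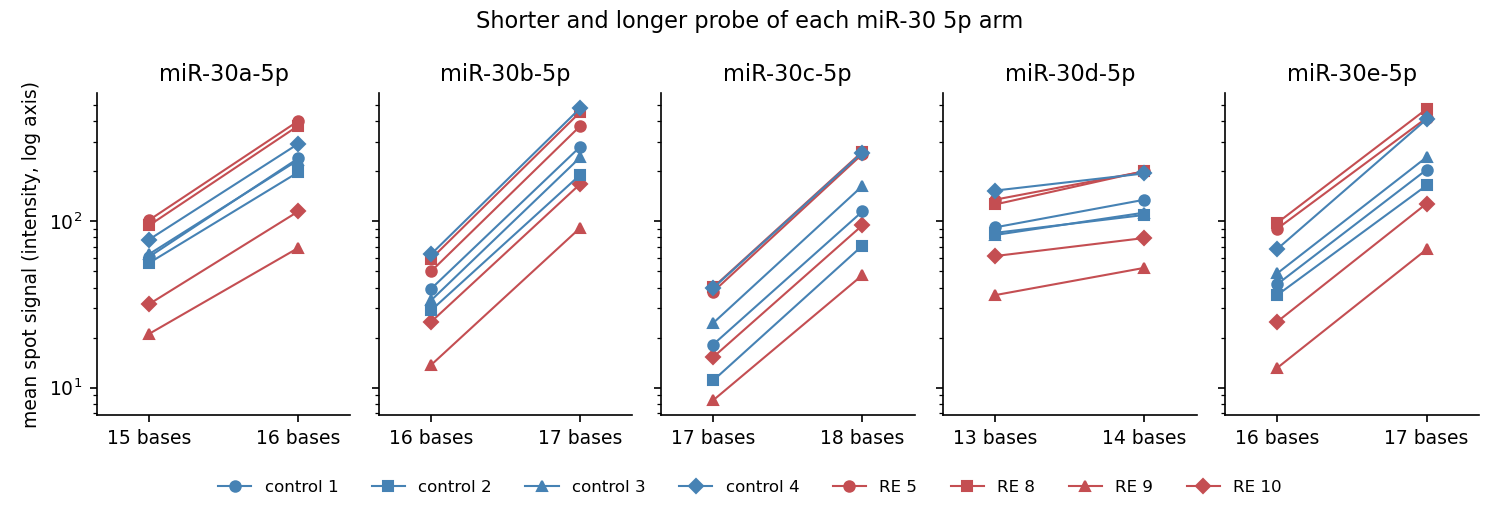
Mean processed spot signal (intensity, log axis) of the shorter and longer probe of each miR-30 5p arm, with a line per array, controls in blue and RE in red. The longer probe is brighter than the shorter on every array, by 1.27 to 1.59 times for miR-30d-5p and by 6.54 to 7.65 times for miR-30b-5p.

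Of the 3p arms on the array, those of Mir30c1 and Mir30c2 alone were detected on all 8 arrays. Both are shown because these hairpins share their 5p arm and can be told apart only by the other strand. With bases 2 to 8 in capitals, RefSeq (GRCr8) gives both.
miR-30c-1-3p: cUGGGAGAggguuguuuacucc
miR-30c-2-3p: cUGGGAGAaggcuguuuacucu
They share a seed that is not the miR-30 seed and differ at 3 of 22 bases, G9A, U12C and C22U from the first to the second.

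The signal of miR-30c-1-3p was 49.5, 60.0, 46.8 and 43.1 in controls and 40.9, 28.3, 26.9 and 52.4 in RE 5, 8, 9 and 10. It ranged over 2.23-fold before scaling and 4.64-fold after, the opposite of the 5p arms. Scaled, the means were -3.65 ± 0.56 and -4.04 ± 1.1 (SD, n = 4), a log2 fold change of -0.40 (SE 0.56, 95% interval -1.67 to 0.88, limma adjusted p = 0.927, exact permutation p = 0.600), and RE 5 and 8 were below every control. Without RE 8 it was 0.0074.

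The signal of miR-30c-2-3p was 19.0, 24.9, 25.1 and 11.2 in controls and 27.1, 24.6, 9.26 and 20.4 in RE 5, 8, 9 and 10. The groups overlapped, with a log2 fold change of 0.054 (SE 0.49, 95% interval -1.07 to 1.18, limma adjusted p = 0.969, exact permutation p = 0.943). The total of each of these arms came from its 19-base probe, which gave 78.5 to 177.6 for miR-30c-1-3p and 13.5 to 41.4 for miR-30c-2-3p, while the shorter probes gave -3.32 to 6.27 and -3.40 to 0.373. A 3p signal therefore rested on 1 probe, where the total of each 5p arm held both of its probes, except that of miR-30c-5p on RE 9.

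The other members of the list were not tested, because none was detected on every array of a group. miR-30a-3p was detected in 0 of 4 controls and 2 of 4 RE samples, with signals of 13.7 in RE 5 and 14.3 in RE 8, the arrays with the highest 75th percentiles. miR-30e-3p was detected in 3 controls and in RE 5 and 8 (18.7 and 17.3), and miR-30b-3p in 3 controls and 1 RE sample. miR-30d-3p and miR-384-5p, the other RefSeq entry with the miR-30 seed, were not detected on any array.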

How the data were processed

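Exosomal RNA from 8 rat serum samples was hybridised by the authors to Agilent rat miRNA arrays, 1 array per sample. The deposited scanner files give linear intensity values written by the Agilent extraction software, with background subtracted and no scaling between arrays, and the deposited value table repeats the processed spot signal (15095 of 15095 features, tolerance 0.001). The total gene signal of an undetected miRNA is given as 0.1. Array number and brightness limit the precision.

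Each total gene signal was scaled to the 75th percentile of the 144 miRNAs that every array detected, with a floor of 0.00350 (the lowest scaled detected signal) before log2. RE was compared with control by limma 3.58.1 (R 4.3.3) in 192 miRNAs that every array of a group detected (two-sided, Benjamini-Hochberg at 0.05, all 8 arrays, no covariate), beside exact permutation tests over 70 splits. The methods' tests were run as alternatives, with other signals, scalings, filters and variance models and each array left out. Python 3.11.15, pandas 2.3.3, numpy 2.4.6 and matplotlib 3.10.9 were used.

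The miRNAs named are the members, their 3p arms and same-seed miRNAs, the 2 nearest profiles per member, cell type markers and the miRNAs called. Members and lists were chosen with earlier results of these data known. Mature sequences and neighbouring genes come from RefSeq (GRCr8), matched by name for 641 of 719 miRNAs on the array and 3 of 5 members. Probe positions are those of the files (rn4).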

Additional observations from a re-analysis of the deposited data

Results flagged for a closer look

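For miR-30a-5p, control replicate 4 stood apart from the other controls, at -1.90 on the scaled log2 scale, where the nearest control was at -1.55. The rule was Dixon's, the gap to the nearest sample over the range of the group, here 0.886 against a cutoff of 0.829. Among 14 such groups, 2 for each tested miR-30 arm, 1 had such a sample. For normally distributed values chance alone gives about 0.7, or 1 in 20. The groups share their arrays and scaling, so they are not independent. Without control 4, the log2 fold change of miR-30a-5p was -0.37 and was not called.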

How the results depend on the processing

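No member was called under any of the 26 alternatives, nor either tested 3p arm, and the smallest adjusted p of a member was 0.350 (miR-30b-5p, array weights). The direction of the members was not stable. With the methods' scaling, which takes the 75th percentile over all miRNAs and so divides RE 9 by 0.1, the log2 fold changes were 1.42, 1.46, 1.67, 1.49 and 1.54 for miR-30a-5p to miR-30e-5p and 1.30 for miR-30c-1-3p, with a member median of 1.49 beside 1.39 for all miRNAs. Without RE 9 the same scaling gave 0.013, 0.023, 0.34 and 0.20 for miR-30a-5p, miR-30b-5p, miR-30c-5p and miR-30e-5p (median 0.023). Median scaling gave 0.19, 0.010 and 0.058 for miR-30c-5p, miR-30d-5p and miR-30e-5p (median 0.010), and quantile normalization 0.24 and 0.047 for miR-30c-5p and miR-30e-5p (median -0.010). The median of all miRNAs was -0.29, and -0.076, -0.13 and -0.32 with median scaling, quantile normalization and no scaling. miR-30c-5p was also above 0 with the mean processed signal (0.0037, and 0.16 without RE 9), normexp (0.044), the value table (0.065) and array weights (0.11), and miR-30e-5p with array weights (0.061). miR-30c-2-3p was below 0 with no scaling (-0.018) and array weights (-0.35). Array weights gave RE 9 0.198 and control 1 3.73.

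Leaving out each array in turn gave -0.37 to -0.14 for miR-30a-5p, -0.30 to -0.13 for miR-30b-5p, -0.22 to 0.19 for miR-30c-5p, -0.24 to -0.16 for miR-30d-5p, -0.27 to 0.047 for miR-30e-5p, -0.72 to 0.0074 for miR-30c-1-3p and -0.39 to 0.29 for miR-30c-2-3p, and -0.27 to -0.13 for the member median. miR-30c-5p was 0.11 without control 3, 0.094 without control 4 and 0.19 without RE 9, miR-30e-5p was 0.047 without RE 9, miR-30c-1-3p was 0.0074 without RE 8, and miR-30c-2-3p was -0.39 without control 4 and -0.12 without RE 10. Leaving out RE 9 also changed the scaling reference, which was recomputed from the miRNAs detected on all remaining arrays. The values without RE 9 therefore do not show the influence of that array alone. The difference in share was 0.0045 percentage points, and -0.030 to 0.045 with an array left out.

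Over all miRNAs, 2 were called, 0 with the mean processed signal, normexp, the methods' scaling, the value table or only miRNAs detected on all arrays, and 1 with no filter, no scaling, a filter that asks for detection on any 1 array, trend and robust variance, or the methods' t-test and analysis of variance, with either correction. Array weights gave 3 calls, and 56 miRNAs with an unadjusted p under 0.05 against 5. With an array left out 1 to 2 were called. The causes were not tested. The alternatives that pair another setting with leaving out RE 9, and those for the spread, were chosen after seeing the data. No paired analysis was possible because the groups share no replicate number.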
